A study of Mus musculus with 18 samples.

Results

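The 6 arrays described here measured gene expression in the normal mouse forebrain: 3 of hippocampus and 3 of cortex, each pair from the same wild-type mouse. They were chosen by their titles and are 6 of 18 arrays in the series, which also covers cerebellum and the same 3 regions of 3 mice lacking Aldh5a1 (Aldh5a1-/-), the gene of an enzyme of GABA breakdown. The wild-type mice carry the numbers 3405, 3406 and 3396 in the titles and received no treatment named there. Age, sex and strain were not given in the labels. Since the source field gives hippocampus for all samples, titles and descriptions set the region here, and marker genes are set against it below. Each value is a probe set's signal, a scaled fluorescence intensity. Below, 3 signals in a row are those of mice 3405, 3406 and 3396 in that order.

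The hippocampus is a curled, older part of the cortical sheet, with densely packed granule cells in the dentate gyrus and pyramidal cells in Ammon's horn, and it is known for its part in forming memories. The neocortex is built of layers of pyramidal cells that project to different targets. Both hold the same broad classes of cells, excitatory neurons, GABA-releasing interneurons and glia.

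Replicate arrays of a region correlated at Pearson r of 0.957 to 0.976 on the log2 scale, and arrays of different regions at 0.924 to 0.946 (across probe sets, so with no test). The ratio of 3' to 5' actin signal, a measure of how intact the RNA was, read 1.3 ± 0.19 (SD, n = 3) in hippocampus and 1.77 ± 0.14 in cortex, and that of Gapdh 0.841 ± 0.0429 and 0.903 ± 0.0202. The actin ratio thus moved with region, and its part in the results below was not tested.

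Hippocampus and cortex of the same mice differed in about as many transcripts in either direction. By limma's moderated test, paired by animal, 625 probe sets (7.46% of the 8382 tested) were higher in hippocampus and 575 (6.86%) higher in cortex at an adjusted p under 0.05, the threshold used throughout and the rate of false calls it allows for among them. In bulk tissue, more cells of a type and more RNA per cell cannot be told apart. Most differences were moderate: the median called difference was 1.65-fold on the hippocampal side and 1.69-fold on the cortical side, and 176 and 175 probe sets reached 2-fold. The direction was the same in all 3 mice for 622 of the 625 and 572 of the 575. These probe sets were called on the same within-mouse differences, which makes such agreement likely. The 3 hippocampal and 3 cortical values did not overlap for 584 and 553 of them, against 15.9% of all tested probe sets lying wholly higher in hippocampus and 18.1% wholly higher in cortex. Counted by gene, with the probe set of lowest p standing for each of 6249 genes, 543 (8.69%) were higher in hippocampus and 468 (7.49%) in cortex. The gene counts below are to be read against these 2 shares. After scaling every array to the same median instead, 786 probe sets were higher in hippocampus and 441 in cortex. Without mouse 3406 the counts fell to 276 and 249, without 3396 to 333 and 320, and without 3405 to 391 and 393, and 170 calls on each side passed in all 3 of these fits. Fitted on the 6 arrays alone, 295 and 247 passed.

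**Figure D1:**
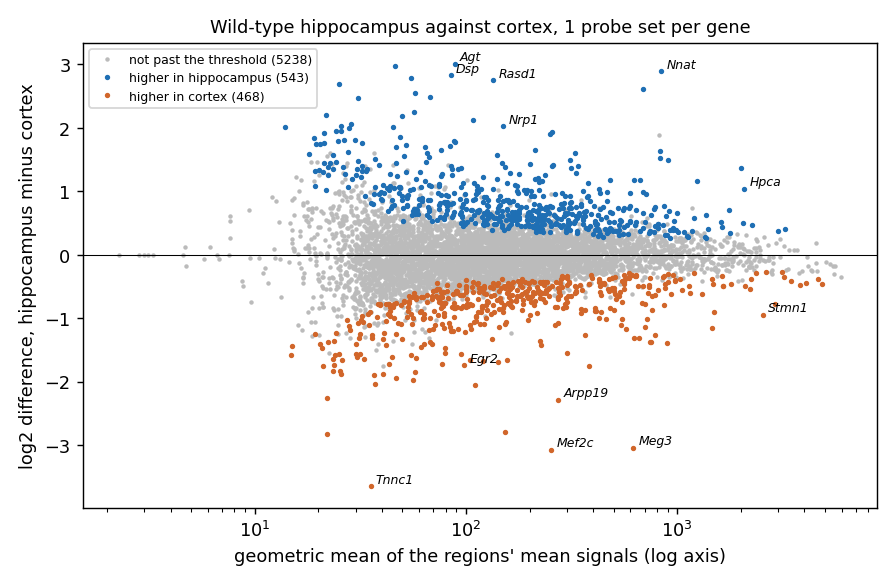
The log2 difference between wild-type hippocampus and cortex (vertical axis) against the geometric mean of the regions' mean signals (horizontal axis, log scale), with 1 point per gene for 6249 genes. The 543 genes higher in hippocampus and the 468 higher in cortex spread over the whole range of signal, and the largest differences reach 3.00 for Agt and -3.65 for Tnnc1.

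The largest hippocampal differences were those of Agt, Kl, Nnat, Dsp and Lpl, of which Kl is described with the choroid plexus genes. Nnat, neuronatin, an imprinted gene of a small membrane protein, read 1891, 2166 and 2723 in hippocampus and 415, 219 and 304 in cortex, a 7.4-fold difference (log2 2.89 ± 0.20, SE; adjusted p = 1.38e-06). Dsp encodes desmoplakin, which ties cell junctions to intermediate filaments and is known as a marker of dentate granule cells. It read 197, 225 and 256 in hippocampus and 35.4, 29.1 and 30.9 in cortex (7.09-fold, log2 2.83 ± 0.20, adjusted p = 1.53e-06). Pkp2, plakophilin, another protein of the same junctions, read 74.98, 83.6 and 54.1 against 11.5, 11.6 and 3.36, with the cortex of 3396 below the floor of 9.46 to which low values were raised (6.46-fold on floored values, adjusted p = 0.00016), and its other probe set gave a log2 difference of 1.89. In all 3 mice the hippocampal values of these genes lay several-fold above every cortical value.

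Rasd1, a Ras-like GTPase induced by glucocorticoids, varied little among the mice, at 334, 344 and 359.8 in hippocampus and 52.02, 43.6 and 60.3 in cortex (6.71-fold, adjusted p = 1.38e-06). Nrp1, the neuropilin receptor for semaphorins and vascular endothelial growth factor, read 253, 305 and 346 in hippocampus and 57.7, 90.9 and 75.9 in cortex (4.06-fold, adjusted p = 1.53e-06), and its other probe set agreed in direction and size, at log2 1.94. Lpl, lipoprotein lipase, which splits triglycerides, read 105, 177 and 125 in hippocampus and 11.4, 39.3 and 15.7 in cortex (6.91-fold), with log2 2.32 on the other probe set. The cortex of mouse 3406 had the highest cortical Lpl, and it was also the highest for Dynll2, a dynein light chain, which read 1682, 1666 and 1537 in hippocampus and 198, 467 and 203 in cortex (6.12-fold). The other Dynll2 probe set did not pass, at log2 -0.12.

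Agt, angiotensinogen, the secreted precursor of angiotensin that astrocytes make in brain, read 209, 211 and 304 in hippocampus and 16.7, 34.1 and 45.98 in cortex (8.0-fold, log2 3.00 ± 0.49, adjusted p = 0.00115); it was higher still in cerebellum, at 888 ± 125 (SD, n = 3). Further genes of this group were Rab3d, a GTPase of regulated secretion (72.1, 73.1 and 70.95 against 13.3, 12.3 and 13.5, 5.52-fold), Nbl1, an inhibitor of bone morphogenetic proteins (5.6-fold), Cotl1, an actin-binding protein (4.6-fold on floored values, with 2 of 3 cortical values under the floor), Nt5dc2 (4.75-fold) and Dap, a gene tied to cell death (4.57-fold). Rab3d did not vary by more than a few units of signal in either region. Anp32a, a nuclear phosphatase inhibitor, and St6galnac6, a sialyltransferase, also passed, but rested on uneven values: Anp32a read 181, 41.1 and 213 in hippocampus, with mouse 3406 close to its cortical 14.3, 39.4 and 13.95, and its other probe set gave 0.10, while St6galnac6 read 173, 235 and 135 in hippocampus and 132, 53.6 and 7.29 in cortex. Without mouse 3405, Anp32a did not pass (adjusted p = 0.117). Without mouse 3406, St6galnac6 did not pass (adjusted p = 0.0696). Without mouse 3396, Anp32a and St6galnac6 did not pass (adjusted p from 0.0586 to 0.103). The log2 difference became 1.26 for St6galnac6 without 3396.

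On the cortical side the largest differences were those of Tnnc1, Mef2c, Meg3 and Cd6. Mef2c, a transcription factor of activity-dependent synapse development, read 127, 96.3 and 46.95 in hippocampus and 695, 893 and 551 in cortex (8.42-fold, log2 -3.07 ± 0.22, adjusted p = 1.53e-06). All 4 Mef2c probe sets passed, the other 3 with log2 differences of -2.48, -2.52 and -2.46. Tnnc1, the troponin C of slow and heart muscle, read 162, 139 and 132 in cortex, while 2 of 3 hippocampal values, 4.52, 16.8 and 4.61, were under the floor (12.55-fold on floored values, adjusted p = 1e-05). Myl4, an atrial and embryonic myosin light chain, read 19.1, 23.96 and 20.3 in hippocampus and 83.9, 85.6 and 64.9 in cortex (3.69-fold), and another probe set differed by less, log2 -0.63. On the probe sets quoted, both muscle genes were low in hippocampus in every mouse. The other Myl4 probe set read 81.1, 92.3 and 92.6 in hippocampus and 145, 133 and 134 in cortex.

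Meg3, an imprinted long noncoding RNA, read 1720.4, 1756 and 1421 in cortex and 442, 125 and 140.1 in hippocampus (8.21-fold, adjusted p = 0.00113), and its other probe set gave log2 -1.60. The hippocampus of mouse 3405 stood above the other two for Meg3. Arpp19, a phosphoprotein that inhibits protein phosphatase 2A, read 154, 114 and 105 in hippocampus and 674, 569 and 567 in cortex (4.9-fold, adjusted p = 2.57e-06), with log2 -1.04 on the other probe set. Mtm1, the lipid phosphatase myotubularin, read 61.97, 50.8 and 59.8 in hippocampus and 349, 492 and 370.1 in cortex (6.96-fold, adjusted p = 1.38e-06) on a probe set whose name ends in f, the maker's sign for one that can match a family of sequences, and the other Mtm1 probe set did not pass, at -0.37. Among the cortical genes of lowest p were also Dlg1, a synaptic scaffold protein (454, 396 and 409 against 1098, 970.2 and 1041, 2.47-fold, adjusted p = 3.2e-06), and Septin11, a filament-forming GTPase (146, 137 and 134 against 386, 375 and 356, 2.68-fold). For both, the values within a region differed far less than the regions did.

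Cd6, known as a receptor of T cells, was under the floor in all 3 hippocampi and read 79.02, 58.3 and 66.2 in cortex, at least 7.11-fold higher, although its other probe set gave -0.38 and did not pass. Pcdh7, a protocadherin, read 18.4, 32.5 and 8.42 in hippocampus and 53.8, 82.01 and 66.7 in cortex (3.73-fold on floored values), Stx3, a membrane fusion protein, 13.8, 11.7 and 13.95 in hippocampus and 34.7, 50.5 and 63.9 in cortex (3.68-fold), and Amy1, an amylase, 10.9, 9.33 and 9.07 in hippocampus and 33.6, 47.6 and 67.8 in cortex (4.8-fold on floored values). Nupr1, a stress-induced nuclear protein, was higher in cortex, at 98.3, 120.5 and 87.2 against 7.03, 45.02 and 40.02 (3.93-fold on floored values). In 3 further genes the probe sets disagreed: Rbm39, a splicing factor (4.16-fold), Cox6b2, an isoform of a cytochrome oxidase subunit (4.09-fold on floored values), and Urod, an enzyme of haem synthesis (3.84-fold), had other probe sets that did not pass, at -0.27 for Rbm39, 0.24 for Cox6b2, whose remaining probe set lay under the floor on all 6 arrays, and 0.20 for Urod. Without mouse 3406, Urod did not pass (adjusted p = 0.206). Without mouse 3396, Urod did not pass (adjusted p = 0.245). The log2 difference became -1.27 for Nupr1 without 3405.

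**Figure D2:**
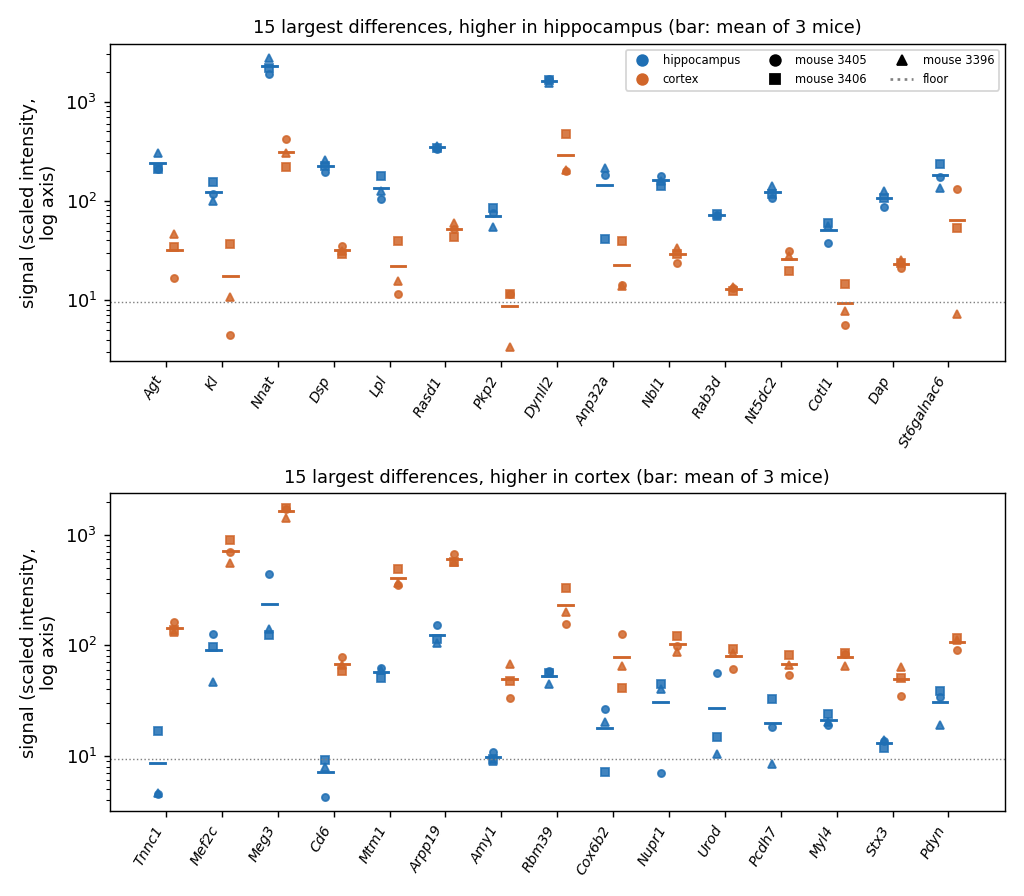
Signal on each array (log axis) of the 15 genes with the largest differences higher in hippocampus (top) and in cortex (bottom), by mouse and region, with a bar at the mean of 3 mice and a dotted line at the floor of 9.46. The hippocampal and cortical values of each gene do not overlap, which was a condition for being shown.

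Genes listed as markers of hippocampal excitatory neurons were mostly higher in hippocampus. The list was chosen with earlier results of these data known, so it is no independent check of the labels. Of 20 that were measured well enough to test, 12 (60%) were higher in hippocampus, 3 were higher in cortex and 5 did not pass, with a median log2 difference of 0.91, where the median over all genes was -0.01. Prox1, the transcription factor that fixes dentate granule cell identity, read 40.6, 43.5 and 40.8 in hippocampus and 5.50, 21.3 and 2.81 in cortex (3.36-fold on floored values, 2 of 3 cortical ones being under the floor, adjusted p = 0.00408). Zbtb20, a zinc finger repressor that specifies hippocampal neurons, read 365, 350.2 and 409.6 in hippocampus and 114, 134 and 110.5 in cortex (3.15-fold), and Tdo2, a tryptophan-degrading enzyme of granule cells, 45.96, 52.1 and 70.6 in hippocampus and 9.43, 22.8 and 10.9 in cortex (4.16-fold on floored values), though another Tdo2 probe set gave -0.06. Lct, lactase, was 3.03-fold higher. The 3 that went the other way were Mef2c, Npnt, a matrix protein (log2 -1.32 ± 0.28), and Calb1, the calcium buffer calbindin (log2 -0.57 ± 0.12), of which Mef2c and Calb1 are also known from cortical neurons.

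Of 17 tested genes listed for cortical layers, 5 (29.4%) were higher in cortex, 3 were higher in hippocampus and 9 did not pass (median -0.30). Tbr1, a transcription factor of deep-layer neurons, read 532, 382 and 487 in hippocampus and 1049, 1487 and 1121 in cortex (2.6-fold, adjusted p = 8.24e-05). Lmo4, a transcriptional cofactor (log2 -0.60 ± 0.10), Cux1, a homeodomain factor of upper layers (-0.44 ± 0.11), Ccn2, a secreted matrix protein of the deepest layer (-0.84 ± 0.23), and Id2, an inhibitor of helix-loop-helix factors (-0.39 ± 0.10), were also higher in cortex. The 3 exceptions were Crym, a thyroid hormone-binding protein of some cortical projection neurons, at 373, 481 and 669.7 in hippocampus and 122, 118 and 149 in cortex (3.83-fold), Neurod6, a factor of pyramidal neurons in both regions (2.39-fold), and Igfbp4, a growth factor-binding protein (2.0-fold, with -0.23 on its other probe set). Of 12 tested cerebellar markers, 3 passed as higher in hippocampus and 1 in cortex. Gabra6, the defining granule cell receptor, read 10.9, 14.6 and 18.7 in hippocampus and 29.7, 13.8 and 29.3 in cortex against 2292 ± 184 in cerebellum. Without mouse 3405, Cux1 and Ccn2 did not pass (adjusted p from 0.0725 to 0.0894). Without mouse 3406, Calb1, Cux1, Ccn2, Id2 and Igfbp4 did not pass (adjusted p from 0.053 to 0.234). Without mouse 3396, Cux1, Ccn2 and Id2 did not pass (adjusted p from 0.0582 to 0.101).

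**Figure D3:**
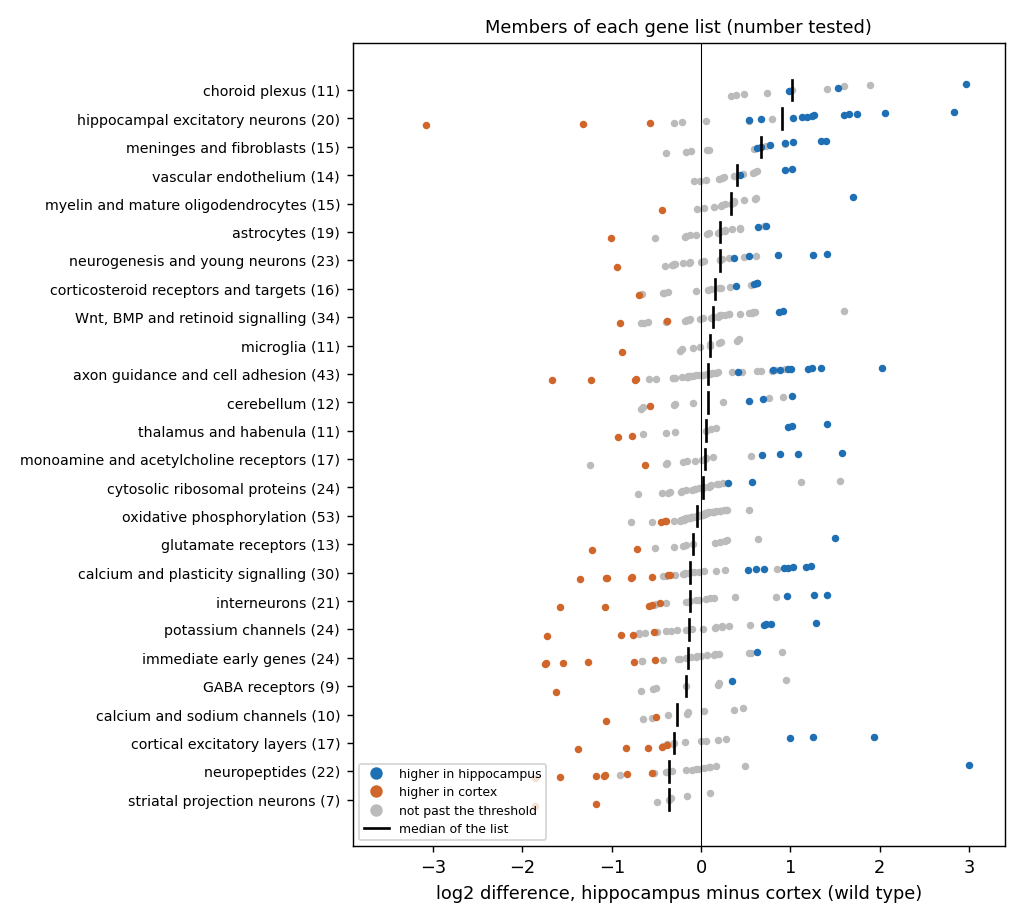
Log2 differences between wild-type hippocampus and cortex of the tested members of 26 gene lists, 1 point per gene, with the list's median as a black bar and the number tested in brackets. Choroid plexus and hippocampal neuron genes lie furthest to the hippocampal side, and striatal and peptide genes to the cortical side.

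Signalling proteins of excitatory synapses split between the regions. Of 30 tested genes of calcium and plasticity signalling, 8 (26.7%) were higher in hippocampus and 8 (26.7%) in cortex, and the median was -0.12. Hippocalcin, encoded by Hpca, a neuronal calcium sensor named for the hippocampus, read 2735, 3114 and 3036 in hippocampus and 1623, 1578 and 1176 in cortex (2.05-fold, adjusted p = 2.11e-05). Ptk2b, a calcium-sensitive tyrosine kinase, was 2.26-fold higher in hippocampus, as were the protein kinase C isoforms Prkcd (1.96-fold) and Prkce (1.9-fold) and the postsynaptic kinase subunit Camk2a (2.34-fold). On the cortical side, Rgs4, which ends G protein signals, read 175, 131 and 116 in hippocampus and 366, 377 and 323 in cortex (2.56-fold, adjusted p = 0.000283). Vsnl1, a calcium sensor of the hippocalcin family, was 1.72-fold higher in cortex, Plcb1, a phospholipase, 2.09-fold, Adcy8, a calcium-activated adenylyl cyclase, 2.08-fold, and Camk2d 1.71-fold. The 2 other Plcb1 probe sets did not pass, at -0.73 and -0.04.

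Few receptor subunits passed, in either direction. Of 13 glutamate receptor subunits tested, Gria1, an AMPA receptor subunit, was the only one higher in hippocampus, at 1227, 1739 and 1599 against 591, 568 and 452 (2.82-fold, adjusted p = 4.46e-06; log2 1.48 on its other probe set), while Gria3 (1.64-fold) and the kainate receptor subunit Grik5 (2.33-fold) were higher in cortex, Grik5 with another probe set at 0.51 that did not pass. Of 9 GABA receptor subunits, Gabrb1 was higher in hippocampus (log2 0.34 ± 0.10) and Gabrd, the subunit of extrasynaptic receptors, was higher in cortex, at 103, 83.8 and 116 against 42.1, 22.4 and 36.2 (3.08-fold). Of 17 monoamine and acetylcholine receptors, 4 were higher in hippocampus, the muscarinic receptors Chrm4 (2.99-fold on floored values) and Chrm1 (2.12-fold), the serotonin receptor Htr5b (1.85-fold) and the adrenergic receptor Adra2c (1.61-fold), and the serotonin receptor Htr4 was higher in cortex (1.55-fold). These lists had medians of -0.08, -0.17 and 0.04. Over all genes, 8.69% were higher in hippocampus and 7.49% in cortex. The shares were 7.69% and 15.4% for glutamate receptors, that is 1 and 2 of 13. They were 11.1% and 11.1% for GABA receptors, that is 1 and 1 of 9. Counts this small cannot tell these shares from those of all genes. The shares for monoamine and acetylcholine receptors were 23.5% and 5.88%.

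Among 24 potassium channel genes 4 were higher in each region. Kcnab2, an auxiliary subunit, read 492, 544 and 513 in hippocampus and 192, 218 and 224 in cortex (2.45-fold), with Kcnab1 (1.72-fold), Kcnd2, of the A-type current (1.66-fold), and Hcn2, a pacemaker channel (1.63-fold), on the same side; second probe sets of Kcnab1, Kcnd2 and Hcn2, at -0.10, 0.66 and 0.18, did not pass. Kcnh1, an ether-a-go-go channel, read 32.4, 29.99 and 11.8 in hippocampus and 92.5, 78.2 and 57.2 in cortex (3.3-fold), with Kcnj9, a G protein-gated channel (1.86-fold), Kcnab3 (1.7-fold) and Kcnma1, the large calcium-activated channel (1.44-fold), also higher in cortex. Of 10 calcium and sodium channel genes, Scn1a, a voltage-gated sodium channel, was 2.1-fold higher in cortex and Cacng2, an AMPA receptor partner, 1.42-fold, and none passed as higher in hippocampus. Without mouse 3405, Camk2a, Adcy8, Grik5, Chrm4, Htr4, Kcnab1, Kcnd2, Hcn2, Kcnab3 and Cacng2 did not pass (adjusted p from 0.0511 to 0.17). Without mouse 3406, Camk2a, Adcy8, Camk2d, Gria3, Grik5, Gabrb1, Chrm4, Chrm1, Htr5b, Adra2c, Htr4, Hcn2, Kcnj9, Kcnma1 and Cacng2 did not pass (adjusted p from 0.0501 to 0.242). Without mouse 3396, Camk2a, Adcy8, Camk2d, Gria3, Gabrb1, Chrm4, Chrm1, Htr5b, Adra2c, Kcnd2, Hcn2, Kcnj9, Kcnab3, Kcnma1 and Cacng2 did not pass (adjusted p from 0.0529 to 0.294). The log2 difference became -0.47 for Camk2d without 3396, 0.71 for Chrm1 without 3396 and 0.45 for Kcnab1 without 3405.

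Immediate early genes, which neurons switch on within minutes of firing, were higher in cortex where they differed, with 1 exception. Of 24 tested, 6 (25%) were higher in cortex and 1 in hippocampus, and the median was -0.14. Egr2, a zinc finger transcription factor, read 58.05, 45.1 and 54.8 in hippocampus and 144, 144 and 259 in cortex (3.35-fold, adjusted p = 0.000389), and the related Egr1 read 528, 464 and 519.8 in hippocampus and 1059, 1221 and 1379 in cortex (2.41-fold, adjusted p = 0.00275). Fos, a subunit of the AP-1 factor, read 199, 130.00 and 198 in hippocampus and 405, 466 and 675 in cortex (2.92-fold, adjusted p = 0.00925). The cortex of mouse 3396 was the highest for all 3. Homer1, a postsynaptic scaffold with a short inducible form, read 14.3, 5.89 and 17.7 in hippocampus and 51.5, 35.6 and 48.1 in cortex (3.33-fold on floored values), with another probe set at -1.01 that did not pass. Ier2 was 1.69-fold higher in cortex and Fosb, outside the rule for named genes, had a log2 difference of -0.51 ± 0.15. Jun, the partner of Fos, was the exception, at 169, 212 and 208 in hippocampus and 107, 130.5 and 145 in cortex (1.54-fold). Genes of the same class such as Junb (-0.12 ± 0.16), Nr4a1 (-0.66 ± 0.32) and Bdnf (0.56 ± 0.29) did not pass.

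Peptide genes leaned the same way. Of 22 tested, 7 (31.8%) were higher in cortex and 1, Agt, in hippocampus, with a median of -0.36. Penk, the precursor of enkephalins, read 387, 386 and 343 in hippocampus and 1212, 884 and 551 in cortex (2.26-fold, adjusted p = 0.00023), and Pdyn, the precursor of dynorphins, 34.4, 38.7 and 18.97 in hippocampus and 91.5, 117 and 112 in cortex (3.62-fold; -0.44 on another probe set that did not pass). Vip, of a class of interneurons that inhibit other interneurons, read 29.9, 28.4 and 36.4 in hippocampus and 79.97, 80.5 and 126 in cortex (2.98-fold, adjusted p = 0.00596). Tac1, the tachykinin precursor (2.11-fold), Pcsk1, a peptide-processing protease (2.13-fold), Adcyap1, a peptide that raises cyclic AMP (1.77-fold), and Npy, neuropeptide Y (1.46-fold), completed the group. Sst, somatostatin, and Cck, cholecystokinin, did not pass, at -0.06 ± 0.22 and 0.10 ± 0.10. Penk and Pdyn are also the 2 of 7 tested genes of striatal projection neurons that were higher in cortex. The summed signal of that list ran from 938 to 1101 in hippocampus and from 1300.1 to 2358 in cortex. That sum includes Penk, whose own means were 372 in hippocampus and 882 in cortex. The other 5 members did not pass, among them Drd2, the dopamine receptor of that list, with a log2 difference of -0.16 ± 0.26. The part of striatal tissue in the result was not tested. Without mouse 3405, Homer1, Jun, Tac1 and Npy did not pass (adjusted p from 0.0624 to 0.153). Without mouse 3406, Fos, Homer1, Ier2, Jun, Tac1, Pcsk1 and Npy did not pass (adjusted p from 0.093 to 0.185). Without mouse 3396, Fos, Homer1, Ier2, Vip and Pcsk1 did not pass (adjusted p from 0.0549 to 0.152). Fosb and Adcyap1 were not part of this check.

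Interneuron genes went both ways: 5 of 21 (23.8%) were higher in cortex and 3 in hippocampus, with a median of -0.13. Besides Vip, Tac1 and Npy, Reln, the secreted protein of layer formation (log2 -0.58 ± 0.12), and Pvalb, the calcium buffer of fast-spiking cells (-0.46 ± 0.12), were higher in cortex. Calb2, calretinin, which in mouse hippocampus also marks mossy cells, was higher in hippocampus, at 374, 433 and 453 against 165, 151 and 158 (2.66-fold, adjusted p = 3.63e-06), with the transcription factor Maf (2.4-fold) and the nitric oxide synthase Nos1 (1.94-fold). The GABA-synthesising enzyme Gad1 and the vesicular transporter Slc32a1 did not pass, at 0.15 ± 0.10 and -0.02 ± 0.13. The other Pvalb probe set did not pass either, at -0.42. Without mouse 3405, Pvalb and Maf did not pass (adjusted p from 0.0619 to 0.11). Without mouse 3406, Reln, Maf and Nos1 did not pass (adjusted p from 0.0869 to 0.15). Without mouse 3396, Maf and Nos1 did not pass (adjusted p from 0.3 to 0.354). The log2 difference became -0.37 for Reln without 3406, 0.66 for Maf without 3396 and 0.60 for Nos1 without 3396.

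**Figure D4:**
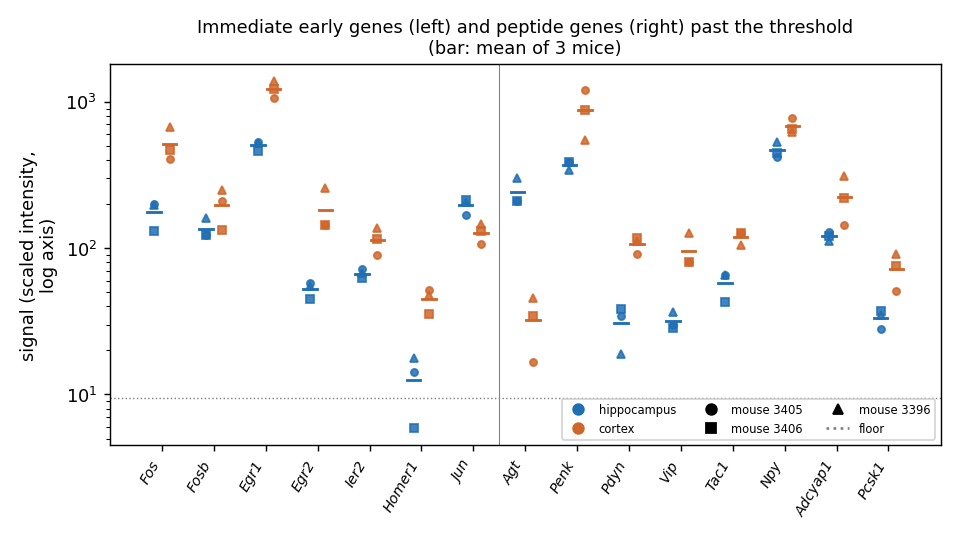
Signal on each array (log axis) of the 7 immediate early genes and the 8 peptide genes past the threshold, by mouse and region, with a bar at the mean of 3 mice and a dotted line at the floor. Of these, Jun and Agt are higher in hippocampus and the others in cortex.

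Promoters of these activity and peptide genes are shown because both groups are known to be switched on through the cyclic AMP response element (CRE) and, for immediate early genes, the serum response element. RefSeq windows of 300 bases (GRCm38.p6, 250 before the start site and 50 after) were searched on both strands for the CRE, TGACGTCA, for its core TGACG, which lies inside it, and for the CArG box of serum response factor. The CRE stands in 1.79% of 32851 promoters of all genes, the core in 20.8% and the CArG box in 1.63%. Among 38 windows of 21 tested immediate early genes the core stood in 19 (50%), the CRE in 3 and the CArG box in 4, and among 23 windows of 21 peptide genes the core stood in 13 (56.5%) and the CRE in 4. In the members higher in cortex that have a listed window, the core stood in 6 of 9 windows of 4 immediate early genes and in 5 of 8 windows of 6 peptide genes, the full CRE in 0 of 9 and 1 of 8, and all 4 windows with a CArG box were among those 9. Windows of a gene with several starts can overlap, 5 of the 9 windows are those of Egr2, and these counts were not tested. The windows below are those of Fos (chr12:85473640-85473939, plus strand), Egr2 (chr10:67537619-67537918, plus strand, 1 of 5 listed starts), Pcsk1 (chr13:75089607-75089906, plus strand) and Vip (chr10:5638968-5639267, plus strand), higher in cortex, and of Jun (chr4:95052173-95052472, minus strand), higher in hippocampus, and Sst (chr16:23890795-23891094, minus strand), which did not pass. The Egr2 window was picked as the one with the most motif matches among its 5 listed starts. Capitals mark the CRE or its core on either strand, and in Egr2 also the CArG box.
Fos: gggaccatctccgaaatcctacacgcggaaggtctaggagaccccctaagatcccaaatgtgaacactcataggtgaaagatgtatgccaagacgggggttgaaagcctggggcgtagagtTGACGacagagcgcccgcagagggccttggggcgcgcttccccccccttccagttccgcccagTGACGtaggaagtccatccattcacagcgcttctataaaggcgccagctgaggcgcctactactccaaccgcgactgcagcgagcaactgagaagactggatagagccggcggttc
Egr2: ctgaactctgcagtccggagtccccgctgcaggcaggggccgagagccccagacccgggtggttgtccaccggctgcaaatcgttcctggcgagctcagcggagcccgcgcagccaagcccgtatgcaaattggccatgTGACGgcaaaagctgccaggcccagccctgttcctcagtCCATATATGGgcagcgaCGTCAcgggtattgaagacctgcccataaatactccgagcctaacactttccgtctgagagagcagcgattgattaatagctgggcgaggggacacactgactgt
Pcsk1: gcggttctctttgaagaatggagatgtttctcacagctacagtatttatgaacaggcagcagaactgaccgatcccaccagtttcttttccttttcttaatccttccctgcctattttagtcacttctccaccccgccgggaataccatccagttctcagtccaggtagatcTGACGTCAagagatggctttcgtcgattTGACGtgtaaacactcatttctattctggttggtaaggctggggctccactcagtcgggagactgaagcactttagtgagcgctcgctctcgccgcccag
Vip: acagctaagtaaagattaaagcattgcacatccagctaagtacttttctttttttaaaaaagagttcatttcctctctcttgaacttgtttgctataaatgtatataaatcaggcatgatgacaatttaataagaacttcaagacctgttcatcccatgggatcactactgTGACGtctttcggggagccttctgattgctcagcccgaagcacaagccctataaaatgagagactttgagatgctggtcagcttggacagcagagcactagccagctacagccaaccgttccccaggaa
Jun: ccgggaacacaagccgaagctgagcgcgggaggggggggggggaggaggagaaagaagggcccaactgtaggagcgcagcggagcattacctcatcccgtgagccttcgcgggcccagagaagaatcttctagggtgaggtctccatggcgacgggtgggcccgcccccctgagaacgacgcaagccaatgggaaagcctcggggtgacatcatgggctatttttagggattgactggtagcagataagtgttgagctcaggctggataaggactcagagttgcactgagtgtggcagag
Sst: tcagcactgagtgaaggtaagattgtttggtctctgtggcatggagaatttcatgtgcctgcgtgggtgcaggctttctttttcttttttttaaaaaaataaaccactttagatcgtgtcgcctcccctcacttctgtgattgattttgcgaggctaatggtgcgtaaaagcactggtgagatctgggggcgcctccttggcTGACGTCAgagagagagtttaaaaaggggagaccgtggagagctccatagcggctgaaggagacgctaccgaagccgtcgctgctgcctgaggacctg
Sst, whose signal did not pass between regions, holds the CRE 48 bases before its start and Pcsk1 holds it 78 bases before, while the Jun window holds none of the 3 motifs. A match is a stretch of letters and not a site shown to be used.

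Guidance and adhesion molecules, which wire and sort neurons, passed in both directions. Of 43 tested, 9 (20.9%) were higher in hippocampus and 4 (9.3%) in cortex, with a median of 0.08. Besides Nrp1 those higher in hippocampus included the ephrin receptors Epha6, at 133, 137 and 141 in hippocampus and 53.04, 53.4 and 55.2 in cortex (2.54-fold), and Epha7 (2.3-fold), and the semaphorins Sema5a (2.37-fold) and Sema6b (2.01-fold). Sema3a, a repellent that signals through Nrp1, was higher in cortex, at 53.7, 29.2 and 53.7 against 11.2, 10.2 and 23.04 (3.17-fold), with Cdh6, a cadherin (2.35-fold), Ephb6 (1.67-fold; another probe set at -0.16) and Plxna2, a semaphorin co-receptor (1.66-fold). Wnt, BMP and retinoid genes were called in 2 and 2 of 34: Rxra (log2 0.92 ± 0.22) and Wnt3 (0.87 ± 0.25) were higher in hippocampus, and Fzd3 (-0.91 ± 0.19) and Id2 higher in cortex. Second probe sets of Rxra and Fzd3, at 0.42 and 0.01, did not pass. Of 16 corticosteroid receptors and targets, 4 (25%) were higher in hippocampus, the mTOR inhibitor Ddit4 (0.63 ± 0.12), the receptor chaperones Fkbp5 (0.62 ± 0.18) and Fkbp4 (0.59 ± 0.17) and the EGF receptor inhibitor Errfi1 (0.39 ± 0.12), and Klf9 (-0.69 ± 0.17) was higher in cortex; second probe sets of Fkbp4, Errfi1 and Klf9, at 0.11, 0.30 and -0.19, did not pass. The glucocorticoid receptor gene Nr3c1 did not pass, at -0.41 ± 0.19.

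Genes of young and dividing cells, looked at because the dentate gyrus forms neurons in adult life, gave a mixed picture. Of 23 tested, 5 (21.7%) were higher in hippocampus, Calb2, the replication factor Mcm2 (2.38-fold), Sox11, a factor of young neurons (1.81-fold), Neurod1, which granule cells need to form (1.45-fold), and Sox2, of neural stem cells and astrocytes (1.29-fold). Stmn1, stathmin, which destabilises microtubules, was higher in cortex, at 2194, 1754 and 1585 in hippocampus and 3685, 3781 and 3104 in cortex (1.92-fold, adjusted p = 1.61e-05). Dcx, doublecortin of migrating neurons, and Mki67, of dividing cells, did not pass, at -0.40 ± 0.15 and -0.12 ± 0.28. Mitochondrial and ribosomal genes were near 0. Oxidative phosphorylation genes were called in 0 and 3 of 53 (median -0.04), with Uqcrb (-0.44 ± 0.10), Cox7b (-0.41 ± 0.12) and Cox7a2 (-0.39 ± 0.10) higher in cortex, and ribosomal protein genes in 2 and 0 of 24 (median 0.02), with Rpl22 (0.57 ± 0.13) and Rpl10a (0.31 ± 0.08) higher in hippocampus. Second probe sets of Sox11, Rpl22 and Rpl10a, at 0.71, 0.47 and 0.10, did not pass. Without mouse 3405, Sema3a, Cdh6, Rxra, Fkbp5, Fkbp4, Errfi1, Mcm2, Sox11, Sox2 and Rpl10a did not pass (adjusted p from 0.0591 to 0.319). Without mouse 3406, Sema5a, Sema3a, Cdh6, Wnt3, Fkbp5, Fkbp4, Errfi1, Klf9, Mcm2, Neurod1, Sox2, Uqcrb, Cox7b, Cox7a2, Rpl22 and Rpl10a did not pass (adjusted p from 0.0517 to 0.332). Without mouse 3396, Rxra, Wnt3, Errfi1, Klf9, Sox11, Neurod1, Cox7b, Rpl22 and Rpl10a did not pass (adjusted p from 0.0677 to 0.229). The log2 difference became 0.55 for Wnt3 without 3396, 0.30 for Fkbp5 without 3406, 0.35 for Fkbp4 without 3406, 0.20 for Sox2 without 3405 and -0.22 for Cox7b without 3406.

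Genes of choroid plexus, which borders the hippocampus, and of meninges passed on the hippocampal side alone. All 11 tested choroid plexus genes were above 0, with a median of 1.01, and 3 (27.3%) passed: Kl, klotho, which read 117, 153 and 99.4 in hippocampus and 4.44, 36.5 and 10.8 in cortex (7.81-fold on floored values, adjusted p = 0.0162), Calml4 (2.89-fold) and Ace (1.97-fold). Ttr, the transthyretin that defines the choroid plexus, did not pass (adjusted p = 0.156) although its values did not overlap, at 1475, 1902 and 1158 in hippocampus and 222, 403 and 711 in cortex. The summed signal of the list ran from 2622 to 3563 in hippocampus and from 949.7 to 1590.1 in cortex. Of 15 genes of meninges and fibroblasts, 12 were above 0, and 7 (46.7%) were higher in hippocampus and none in cortex (median 0.67, sums 4953 to 6201 and 4345 to 5068). They were led by Dcn, decorin, at 424, 503 and 738 in hippocampus and 158, 215 and 251 in cortex (2.65-fold), which some hippocampal neurons also express, and by the collagens Col1a2 (2.54-fold) and Col1a1 (2.04-fold), whose other probe sets, at 0.05 and 0.33, did not pass. Ptgds, Slc6a13 and Col6a1 of the meningeal list were below 0, at -0.40, -0.17 and -0.11, and did not pass. Of 11 thalamic and habenular genes, 3 were higher in hippocampus (Calb2, Zic1, 1.01 ± 0.22, and Prkcd) and 2 in cortex (Rora, -0.77 ± 0.18, and Ramp3, -0.93 ± 0.28). Their summed signal ran from 1738 to 2405 in hippocampus and from 1550.1 to 1736 in cortex. The part of such tissue in the results above was not tested.

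Glial and vascular genes were tested in the same way. Of 15 myelin and oligodendrocyte genes, 13 were above 0 (median 0.33), but only Sox10, the lineage transcription factor, passed as higher in hippocampus, at 108, 150.1 and 81.02 against 18.8, 49.2 and 41.7 (3.24-fold; log2 0.65 on its other probe set), and Mbp as higher in cortex (log2 -0.44 ± 0.13; -0.16 on another probe set). The other Mbp probe set was much brighter, at means of 3066 in hippocampus and 3359 in cortex against 203 and 274, and did not pass. Summed myelin signal was lowest in mouse 3396 in both regions, at 5034 in hippocampus and 4457 in cortex, against 7494 and 5644 in mouse 3405 and 7479.8 and 5662 in 3406. Of 19 astrocyte genes, Gfap, the astrocyte filament (1.65-fold; log2 0.86 on its other probe set), and Atp1b2, a sodium pump subunit (1.55-fold), were higher in hippocampus, and Dio2, which activates thyroid hormone, was higher in cortex, at 564, 698 and 685 against 297, 260.2 and 426 (2.02-fold). Of 11 microglial genes only Csf1r passed, as higher in cortex (log2 -0.88 ± 0.21), and its other probe set gave 0.07. Of 14 endothelial genes, Tie1 (2.02-fold, with 0.47 on another probe set that did not pass), Vwf (1.91-fold) and Bsg (1.35-fold) were higher in hippocampus, while Pecam1 and Cldn5 did not pass, at -0.01 ± 0.18 and 0.26 ± 0.13. Without mouse 3405, Kl, Calml4, Ace, Col1a2, Col1a1, Zic1, Mbp, Csf1r and Tie1 did not pass (adjusted p from 0.0657 to 0.14). Without mouse 3406, Calml4, Ace, Col1a1, Zic1, Rora, Ramp3, Mbp, Gfap, Atp1b2, Csf1r, Tie1, Vwf and Bsg did not pass (adjusted p from 0.0514 to 0.376). Without mouse 3396, Kl, Col1a2, Col1a1, Rora, Ramp3, Mbp, Gfap, Atp1b2, Tie1 and Vwf did not pass (adjusted p from 0.0501 to 0.276). The log2 difference became 0.67 for Zic1 without 3405, -0.40 for Ramp3 without 3406 and 0.29 for Bsg without 3406.

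The same regions of the 3 Aldh5a1-/- mice, numbers 3363, 3389 and 3403, gave the regional difference again in other animals. There, 578 probe sets (6.9%) were higher in hippocampus and 631 (7.53%) in cortex. Of the 625 probe sets higher in wild-type hippocampus, 595 (95.2%) had the same sign, 297 (47.5%) also passed the same way and 3 passed the opposite way. Of the 575 higher in wild-type cortex, 542 (94.3%) had the same sign, 330 (57.4%) passed and 1 passed the opposite way. Over all tested probe sets, 53.1% of the Aldh5a1-/- differences were above 0. Seen from the other side, the shared calls were 51.4% of the hippocampal and 52.3% of the cortical calls in Aldh5a1-/- mice. The differences correlated at r = 0.656 across the 8382 probe sets, which share the spread estimate but no array. Mef2c had log2 -2.91 in Aldh5a1-/- mice, Dsp 2.66, Rasd1 3.05, Nrp1 2.39, Prox1 1.74, Egr2 -1.38 and Penk -0.78. The list medians there were 1.15 for hippocampal excitatory neurons, -0.15 for immediate early genes, -0.24 for peptides, 0.83 for choroid plexus and 0.22 for meninges and fibroblasts. Aldh5a1 itself was not analysed here.

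A test of the difference between the genotypes' regional contrasts called 0 probe sets (0.0%) by limma, with 719 at an unadjusted p under 0.05 where 419.1 would fall by chance, and 2 with no filter on low signals. The 5 genes of lowest p all had an adjusted p of 0.315. Neurod6 was 1.25 ± 0.17 in wild-type and 2.40 in Aldh5a1-/- mice, in the same direction in all 6. Laptm4a, a lysosomal membrane protein, read 1481, 1808 and 2272 in wild-type hippocampus and 651, 833 and 1014 in cortex, a log2 difference of 1.16 ± 0.11, against 0.34 in Aldh5a1-/- mice. The other 3, Zfp276, Septin4 and Il15ra, had opposite signs in the genotypes on these probe sets. Nupr1, higher in wild-type cortex at -1.97 ± 0.41, had -0.21 in Aldh5a1-/- mice, and the difference of the contrasts did not pass (adjusted p = 0.458).

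**Figure D5:**
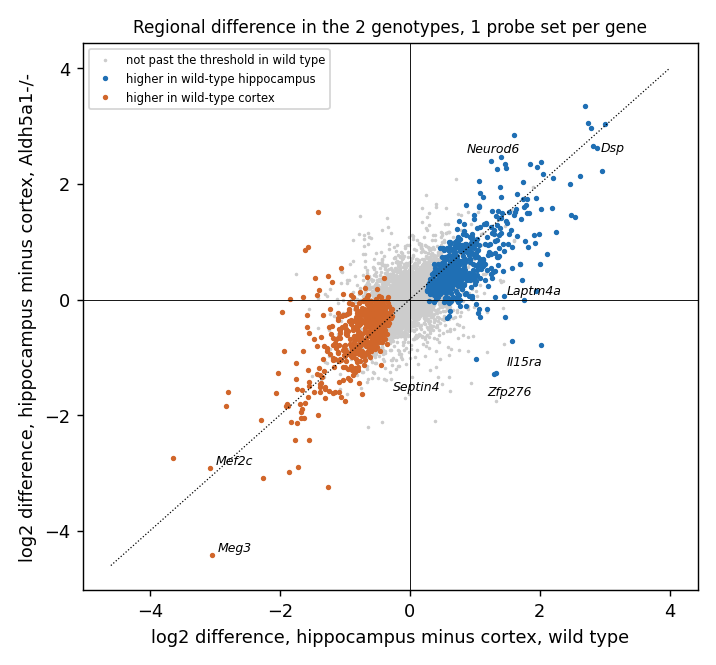
Log2 difference between hippocampus and cortex in Aldh5a1-/- mice (vertical axis) against wild-type mice (horizontal axis), 1 point per gene, with the line of equal differences dotted. Most genes called in wild type lie in the 2 quadrants of equal sign, and Zfp276 and Il15ra lie in the others.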

How the data were processed

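RNA of hippocampus, cortex and cerebellum was hybridised to 18 one-colour Affymetrix arrays of 12488 probe sets. The authors deposited 1 intensity per probe set, already summarised and scaled, since the 2% trimmed means of the arrays were alike. The software was not given in the sources used here. Intensities below their 20th percentile over all arrays (9.46) were raised to it and taken to log2. The 66 control probe sets were left out, and the 8382 above their array's 40th percentile on at least 3 arrays were tested. Limma 3.58.1 (R 4.3.3) fitted the 6 groups on all 18 arrays with the animal as a block, a trend of spread with intensity, and Benjamini-Hochberg adjustment over all tested probe sets. Every p-value in the text comes from this moderated fit over 3 mice per genotype, or from the same fit with the named mouse left out.

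The animal number in the titles says that hippocampus and cortex came from 1 mouse. Deviations from the group means correlated at 0.0445, 0.0748 and 0.162 between the regions of mice 3405, 3406 and 3396. Between regions of different wild-type mice the correlations ran from -0.13 to 0.0739, the highest being above that of mouse 3405's own pair. A gene is the probe set of lowest p among those with 1 symbol in the platform annotation: 10855 probe sets had 1 symbol, 396 several and 1237 none. Genes named in the text are the 15 largest per direction with the same sign in all mice and no overlap, the 5 of lowest p per direction, up to 5 passing members per direction of each list (or the 2 of lowest p), and the 5 of lowest p for genotype by region. Adcyap1, Fosb and Nupr1 in the genotype comparison, and genes named as not passing or as defining markers, were chosen after their values were seen. The genes and lists were chosen with earlier results of these data known. Tested on simulated data of 8382 probe sets for this comparison, the fit recovered 28% of planted log2 differences of 0.5, 68% of 1, 88% of 1.5 and 98% of 2, with 11 false among 152 calls. The simulated data held 50 differences of each size, normal noise and no floor. The real arrays gave many more calls, so these rates need not hold for them. The number of arrays limits the precision. The alternatives tried were quantile and median scaling, other floors and filters, no trend, no block, fewer arrays and 1 mouse left out.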

Additional observations from a re-analysis of the deposited data

Results flagged for a closer look

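On 1 probe set each of 3 genes, every wild-type mouse had more signal in hippocampus and every Aldh5a1-/- mouse more in cortex. For Zfp276 the log2 differences were 2.12, 1.24 and 0.53 in wild-type mice 3405, 3406 and 3396 and -1.45, -1.04 and -1.40 in Aldh5a1-/- mice 3363, 3389 and 3403, so the genotypes differed by 2.59 ± 0.49 (SE). For Il15ra, the alpha chain of the interleukin-15 receptor, they were 1.63, 1.5 and 0.85 against -0.83, -1.76 and -1.21, a difference of 2.59 ± 0.51. For Septin4, a filament-forming GTPase, they were 0.79, 0.04 and 0.999 against -1.78, -1.18 and -1.03, a difference of 1.94 ± 0.37. The difference between genotypes was tested in limma and none of the 3 passed, each with an adjusted p of 0.315. Signals were low, at a mean of 33.1 for Zfp276, 50.7 for Il15ra and 48.0 for Septin4 in wild-type hippocampus, against a floor of 9.46. The wild-type cortical Zfp276 values of mice 3405 and 3406, 7.83 and 7.48, lay under the floor, so their differences are against the floor. The Septin4 probe set carries the suffix f of probe sets that can match a family of sequences. The other Septin4 probe set gave 0.11, -0.11 and -0.30 in the wild-type mice, so 2 of the 3 went the other way, and a genotype difference of 0.37 ± 0.24 (adjusted p = 0.691).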

How the results depend on the processing

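In wild-type mice the total of 1200 called probe sets stayed within 1.5 times under the other scalings, floors and filters and without the intensity trend (973 to 1250). The calls themselves changed more. With no filter, where 12422 probe sets were tested, 438 were higher in hippocampus and 535 in cortex, and 792 of these calls were among the 1200. With no replicate block, that is without pairing by animal, 1050 passed (532 higher in hippocampus, 518 in cortex), and with the animal as a random effect 1209. On the 6 arrays alone 542 passed, 295 higher in hippocampus and 247 in cortex, in a fit with 2 residual degrees of freedom instead of 8. Leaving out 1 mouse in turn (of either genotype, since all arrays share the spread estimate) gave 525 to 1089 calls in wild type, 276 to 568 of them higher in hippocampus and 249 to 521 in cortex. For Aldh5a1-/- mice it gave 516 to 1295 calls, 223 to 619 higher in hippocampus and 293 to 676 in cortex. The genotype-by-region test called 0, but 2 with no filter and 1 without mouse 3403. Median scaling called 1227 probe sets, 786 higher in hippocampus and 441 in cortex, of which 1066 were among the 1200, with a median log2 difference over all probe sets of 0.044 in place of -0.016.

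None of the 143 named genes reversed its direction under a setting that tested it (the 60th percentile filter tested 115), and 127 stayed on the same side of the threshold with no replicate block, 90 on the 6 arrays and 77 without mouse 3406. With the brightest probe set per gene, an alternative chosen after seeing the data, 5 of 24 immediate early genes, 6 of 22 peptide genes and 5 of 15 meningeal genes passed in their main direction, and of the microglial genes 0.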
